A study of Mus musculus with 10 samples.

Results

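The balanced diet was set against the mean of both unbalanced diets, which asks where a CpG island of the mouse brain had more or less methylated DNA under an equal supply of n-3 and n-6 fatty acids than under an excess of either. DNA of the left hemibrain of male C57BL/6j mice was assayed on 10 arrays. Feeding began 3 weeks after birth and lasted 24 weeks, and the diets were designed with equal caloric content. The balanced diet (BLD, n3:n6 1:1) had 3 arrays, the n-3 enriched diet (ERD, 7:1) had 4 and the standard laboratory diet (STD, 1:6) had 3. Arrays were placed in groups by diet label, and the comparison takes the BLD mean minus the average of the ERD and STD means and uses 10 of the 10 arrays of the study. All 10 sample titles, whatever the diet, also end in the word CONTROL, which the labels do not explain. The arrays sat in pairs on 5 slides: BLD replicates 1 and 2 shared slide 3 with no other diet, BLD replicate 3 shared slide 4 with STD replicate 1, and the ERD arrays and the other STD arrays had slides of their own diet. Replicate numbers follow accession order. Whether each array is a mouse of its own is not stated in the labels, so the p-values reflect the spread between these samples only, which may be technical.

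Cytosine methylation at CpG dinucleotides is a heritable mark that, at promoters, is known to go with silent genes. CpG islands are short stretches rich in CpG that overlie many promoters and are mostly free of the mark in normal tissue. n-3 and n-6 polyunsaturated fatty acids are essential dietary lipids that compete for the same desaturases and elongases. Docosahexaenoic acid (n-3) and arachidonic acid (n-6) are the main long forms in brain membranes. In methylated DNA immunoprecipitation (MeDIP) an antibody to methylcytosine enriches methylated fragments, which are hybridised (Cy5) against input DNA of the same sample (Cy3). A log2 ratio above 0 means that a probe was more enriched than the median probe of its array. A hemibrain is a mixture of neurons, glia and vessel cells, so a shift in cell types and a shift of methylation within a cell type cannot be told apart.

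The arrays measured 13835 regions, each a run of 3 or more neighbouring probes (median 5 probes over 644 bp), with 85655 probes in all. Between 76.4% and 94.7% of the spots of an array were well above background in both channels, namely 89.6% ± 1.4 for BLD (SD, n = 3), 88.5% ± 5.1 for ERD (SD, n = 4) and 81.5% ± 6.8 for STD (SD, n = 3). The number of arrays limits the precision: the median SE of a regional difference was 0.11 on the log2 scale, and its 95% confidence interval reached 0.24 to either side. Probe positions are on mouse build mm9. Gene models of that build were not used here, so regions are given by position, and genes, exons and UTRs at them were not analysed here.

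No region passed adjustment: limma with Benjamini-Hochberg adjustment called 0 of 13835 regions (0%), and the lowest adjusted p was 0.281. At an unadjusted limma p below 0.05 there were 1208 regions (8.73%), of which 835 (6.04%) were higher in BLD and 373 (2.7%) lower. Counted without any test, 58.5% of regions had a difference above 0, and the median difference was 0.031. The median of the 835 higher regions was 0.29 and that of the 373 lower regions was -0.29. The split depended on the scaling: it was 491 higher and 520 lower with loess normalisation within arrays, 705 and 736 with quantile normalisation, and 0 and 138 with normexp background correction. It also depended on single arrays. Dropping BLD replicate 1 left 401 higher and 78 lower, dropping BLD replicate 2 left 317 and 288, and dropping BLD replicate 3 gave 1261 and 843. Dropping ERD replicate 2 gave 1338 higher and 441 lower, and dropping STD replicate 1 left 628 and 240. In every one of the 10 fits that leave out an array, 139 of the higher and 35 of the lower regions kept an unadjusted p below 0.05.

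A stricter reading asks for BLD to lie outside ERD and outside STD at once, with the larger of both unadjusted limma p-values as the p of the region. On that rule 282 regions (2.04%) had p below 0.05, 203 (1.47%) with BLD above both diets and 79 (0.571%) with BLD below both. After adjustment limma called 0 (0%), with a lowest adjusted p of 1. All 3 BLD arrays lay above all 7 other arrays in 220 regions (1.59%) and below all 7 in 66 (0.477%), together 286 (2.07%). Without BLD replicate 3, 781 regions met the stricter rule and in 1667 the remaining BLD arrays were apart from the other 7, where fewer arrays also have less to satisfy. The stricter count was 118 when BLD replicate 1 was dropped, 121 for BLD replicate 2, 144 for STD replicate 1, 186 for ERD replicate 3 and 470 for ERD replicate 2. The count of regions with BLD apart was 496 when BLD replicate 1 was dropped, 500 for BLD replicate 2, 576 for ERD replicate 2 and 533 for STD replicate 3.

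The region with the lowest p of the table, higher in BLD, had 3 probes on chromosome 19, chr19:7315635-7315974. Its BLD arrays read 0.34, 0.47 and 0.25, its ERD arrays -0.33, -0.35, -0.40 and -0.26, and its STD arrays -0.19, -0.15 and -0.53. All 3 BLD arrays were above the array median and all 7 others below it, with a gap of 0.40 between the nearest arrays. The group means were 0.36 ± 0.11 for BLD (SD, n = 3), -0.33 ± 0.058 for ERD (SD, n = 4) and -0.29 ± 0.21 for STD (SD, n = 3). BLD exceeded the mean of both by 0.67 (SE 0.10, limma adjusted p = 0.281). With normexp the difference was -0.079 (SE 0.14), of opposite sign but smaller in size than its SE. Against ERD the difference was 0.69 (SE 0.11) and against STD it was 0.65 (SE 0.12); both share the BLD arrays. The difference was 0.61 to 0.72 when an array was left out, and on slide 4 BLD replicate 3 was 0.44 above STD replicate 1. Each of the 3 probes was higher in BLD. The pair of probes of 45 nt gave 0.44 (SE 0.18) and 0.78 (SE 0.22) and were well above background on 8 and 9 arrays. The last probe, of 57 nt, was well above background on 4 arrays and on none of STD; without it the region's difference was 0.61 (SE 0.10).

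**Figure D1:**
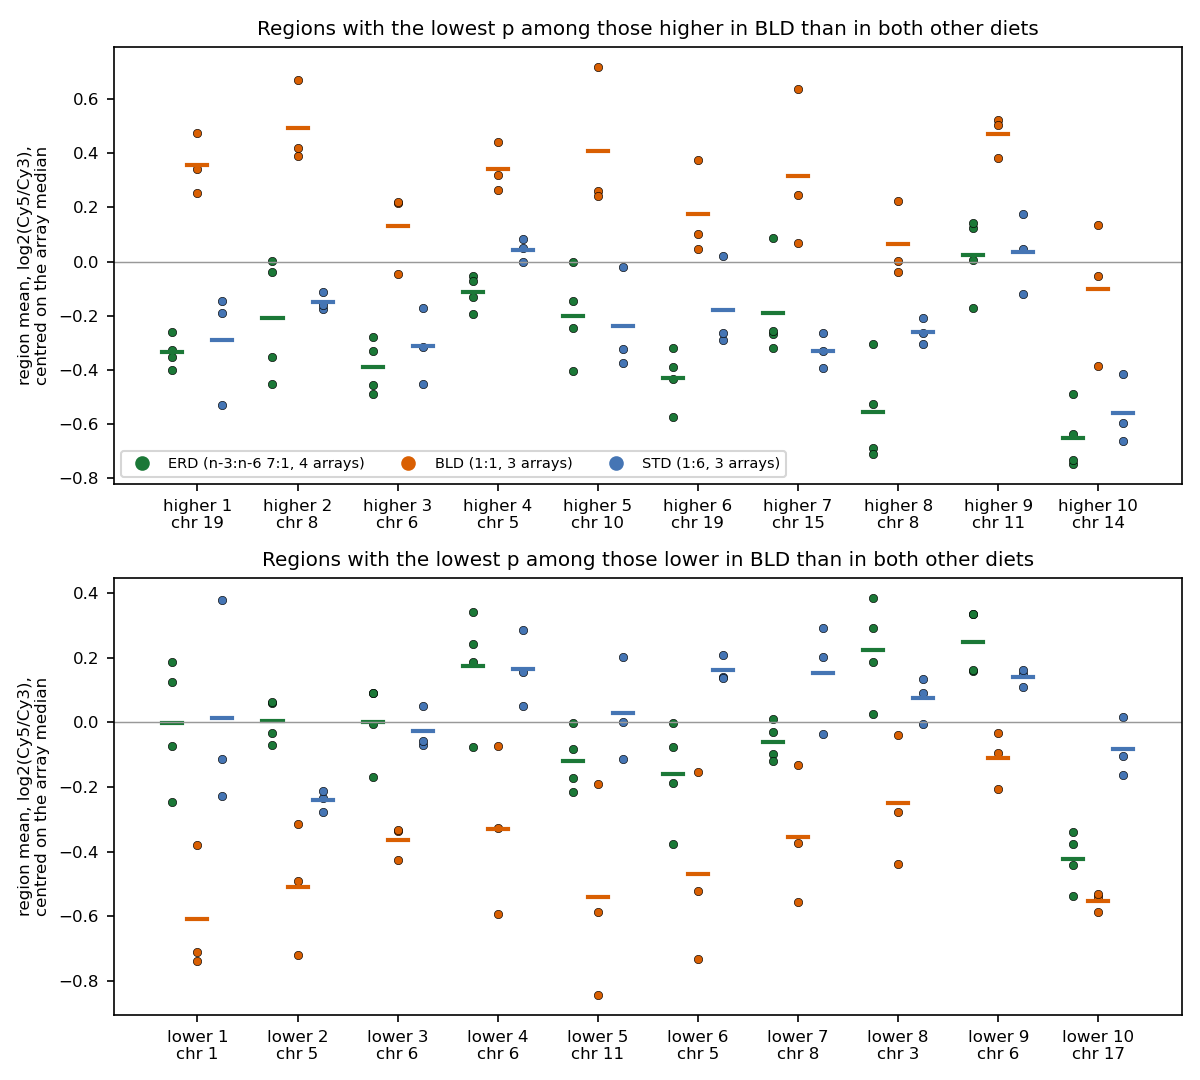
Region means of the centred log2(Cy5/Cy3) ratio (y axis) on every array for the 10 regions with the lowest p higher in BLD (top) and the 10 lower in BLD (bottom), with a dot per array and a bar at the diet mean. In 9 of the 10 upper regions and 6 of the 10 lower regions the 3 BLD arrays lie clear of the other 7. With normexp 7 of the upper and 1 of the lower differences had the opposite sign, and all 20 lay between -0.13 and 0.11.

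The other regions of the higher set were on chromosomes 5, 6, 8, 10, 11, 14, 15 and 19, and each had a limma adjusted p of 0.513 or 0.562. With normexp, 7 of the 10 higher regions had the opposite sign. Their values were smaller in size than their SE, except at chr6:112646237-112646914 (-0.064, SE 0.062). The named regions on chromosomes 14 and 15 gave 0.11 (SE 0.087) and 0.0088 (SE 0.070), and the one described next gave 0.071 (SE 0.081). Under 50% of the spots of a diet were well above background in 4 of the 10, always in STD: 33.3% at the chromosome 19 region above, at chr8:87364036-87364692 and at chr19:5001639-5002103, and 44.4% at chr10:126467540-126468038. The region chr8:79425933-79426273 was made of 3 probes of 45 nt only. The BLD arrays read 0.0016, 0.22 and -0.037, its ERD arrays -0.53, -0.30, -0.69 and -0.71, and its STD arrays -0.26, -0.21 and -0.31. The BLD arrays lay near the array median and all others below it, with no overlap. BLD was 0.47 above the mean of both diets (SE 0.10, limma adjusted p = 0.562), 0.62 (SE 0.11) above ERD and 0.32 (SE 0.12) above STD. At its last probe ERD read -0.96 ± 0.43 (SD, n = 4), STD 0.071 ± 0.25 (SD, n = 3) and BLD -0.087 ± 0.30 (SD, n = 3), so that BLD was above ERD but not above STD there.

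The region with the most probes in the higher set was chr6:112646237-112646914, with 6. Its BLD arrays read 0.22, 0.22 and -0.046, its ERD arrays -0.33, -0.46, -0.49 and -0.28, and its STD arrays -0.45, -0.31 and -0.17. BLD was again above all 7 others, by 0.48 over the mean of both diets (SE 0.10, limma adjusted p = 0.562), and all 6 probes had that sign. In chr10:126467540-126468038, of 3 probes, the BLD arrays read 0.72, 0.26 and 0.24, the ERD arrays -0.40, -0.15, -0.24 and -0.0013, and the STD arrays -0.37, -0.32 and -0.021. BLD was clear of the rest there too, and BLD replicate 1 was far above the other BLD arrays; the difference of 0.63 (SE 0.13, limma adjusted p = 0.562) was 0.47 without it. Each region held 1 or more probes that were not well above background on any array of a diet. Without these probes the differences were 0.46 (SE 0.10) from 4 probes on chromosome 6 and 0.54 (SE 0.12) from 2 probes on chromosome 10.

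In 2 other regions of the higher set the value rested on a dim probe. In chr8:87364036-87364692 the BLD arrays read 0.42, 0.67 and 0.39 and all others were at or below 0.0027, a difference of 0.67 (SE 0.11, limma adjusted p = 0.513). Of its 3 probes 2 were not well above background on any STD array, and the probe that remained gave 0.18 (SE 0.22). In chr11:105317709-105318105 the BLD arrays read 0.52, 0.50 and 0.38, the ERD arrays 0.0051, 0.12, -0.17 and 0.14, and the STD arrays 0.18, -0.12 and 0.047. Its 60 nt probe carried the difference of 0.44 (SE 0.10, limma adjusted p = 0.562) and was not well above background on any array. Without that probe BLD was not higher, at -0.049 (SE 0.079).

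The remaining 4 of the higher set gave 0.38 to 0.58 with all probes. They were chr5:25211278-25211813 (5 probes, 0.38), chr19:5001639-5002103 (4 probes, 0.48), chr15:102865150-102865470 (4 probes, 0.58) and chr14:47407393-47408205 (4 probes, 0.50). On chromosome 5 BLD read 0.44, 0.32 and 0.26, ERD -0.13, -0.19, -0.052 and -0.073, and STD -0.0028, 0.051 and 0.083, so that the diets fell in the order BLD, STD and ERD with no overlap. Without probes that were not well above background on any array of a diet, these regions gave 0.22 (SE 0.091), 0.37 (SE 0.16), 0.36 (SE 0.15) and 0.33 (SE 0.10). On chromosome 15 a neighbouring region 1705 bp away, chr15:102863049-102863445, was also higher in BLD, by 0.68 (SE 0.17, limma adjusted p = 0.562), while the nearest region, 596 bp away, had a difference of -0.075. ERD replicate 2 overlapped the BLD arrays at the named chromosome 15 region, at 0.089 against 0.067 for BLD replicate 3.

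The region with the lowest p among those lower in BLD was chr1:9689896-9690240, with 3 probes of 45 nt that were well above background on all 10 arrays. Its BLD arrays read -0.74, -0.71 and -0.38, its ERD arrays 0.19, -0.073, 0.12 and -0.25, and its STD arrays 0.38, -0.23 and -0.11. The BLD arrays were below all others, and STD ranged widely around the array median. The difference was -0.61 (SE 0.14, limma adjusted p = 0.562), with -0.61 (SE 0.16) against ERD and -0.62 (SE 0.17) against STD. It stayed between -0.73 and -0.52 when an array was left out, but with normexp it was -0.0034 (SE 0.33). On slide 4 BLD replicate 3 was below STD replicate 1, by -0.76. The middle probe gave -1.11 (SE 0.28) and the first -0.78 (SE 0.36), while the last gave 0.051 (SE 0.17).

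The lower set also held chr6:71221415-71222222, with 6 probes of 45 nt that all had the same sign. There BLD read -0.43, -0.34 and -0.33, its ERD arrays 0.091, 0.090, -0.0069 and -0.17, and its STD arrays -0.071, 0.050 and -0.059. The BLD arrays were close together and 0.16 below the nearest of the others, the widest gap of any region lower in BLD. BLD was lower than the mean of both diets by a difference of -0.35 (SE 0.085, limma adjusted p = 0.562). The largest difference was at the last probe, where the BLD mean was -0.87 ± 0.58 (SD, n = 3), the ERD mean -0.088 ± 0.11 (SD, n = 4) and the STD mean -0.039 ± 0.19 (SD, n = 3).

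At chr5:104084379-104084829, with 5 probes of 45 nt, the BLD arrays read -0.72, -0.49 and -0.32, the ERD arrays 0.058, -0.071, 0.064 and -0.032, and the STD arrays -0.23, -0.21 and -0.28. The diets fell in the order ERD, STD and BLD with no overlap between them. BLD was below ERD with a difference of -0.51 (SE 0.10) and below STD with -0.27 (SE 0.11), and on slide 4 the difference was -0.082. At chr6:48576914-48577371, with 4 probes, BLD read -0.094, -0.21 and -0.034, ERD 0.16, 0.16, 0.34 and 0.34, and STD 0.11, 0.15 and 0.16, again with BLD apart. Its difference was -0.31 (SE 0.082, limma adjusted p = 0.562).

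The remaining 6 of the lower set were chr6:11875780-11876497 (-0.50), chr11:51419398-51419900 (-0.50), chr5:123526309-123526829 (-0.47), chr8:41719873-41720364 (-0.40), chr3:85774866-85775493 (-0.40) and chr17:21082131-21082881 (-0.30). With normexp the 10 lower differences lay between -0.13 and 0.048, each smaller in size than its SE, and chr5:123526309-123526829 had the opposite sign (0.048). BLD arrays overlapped another diet in 4 of these 6. Those without overlap were on chromosomes 8 and 3, and in both 1 BLD array lay just below the other diets. On chromosome 8 BLD read -0.56, -0.13 and -0.37, ERD between -0.12 and 0.0099 and STD between -0.036 and 0.29. On chromosome 3 BLD read -0.44, -0.28 and -0.040, ERD between 0.025 and 0.38 and STD between -0.0047 and 0.13. On chromosome 17 BLD was close to ERD, with a difference of -0.13 (SE 0.089), and far from STD, with -0.47 (SE 0.095). When probes not well above background on any array of a diet were left out, 8 of the 10 lower regions kept all their probes. That of chromosome 17 gave -0.20 (SE 0.11) and chr5:123526309-123526829 gave -0.46 (SE 0.18).

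**Figure D2:**
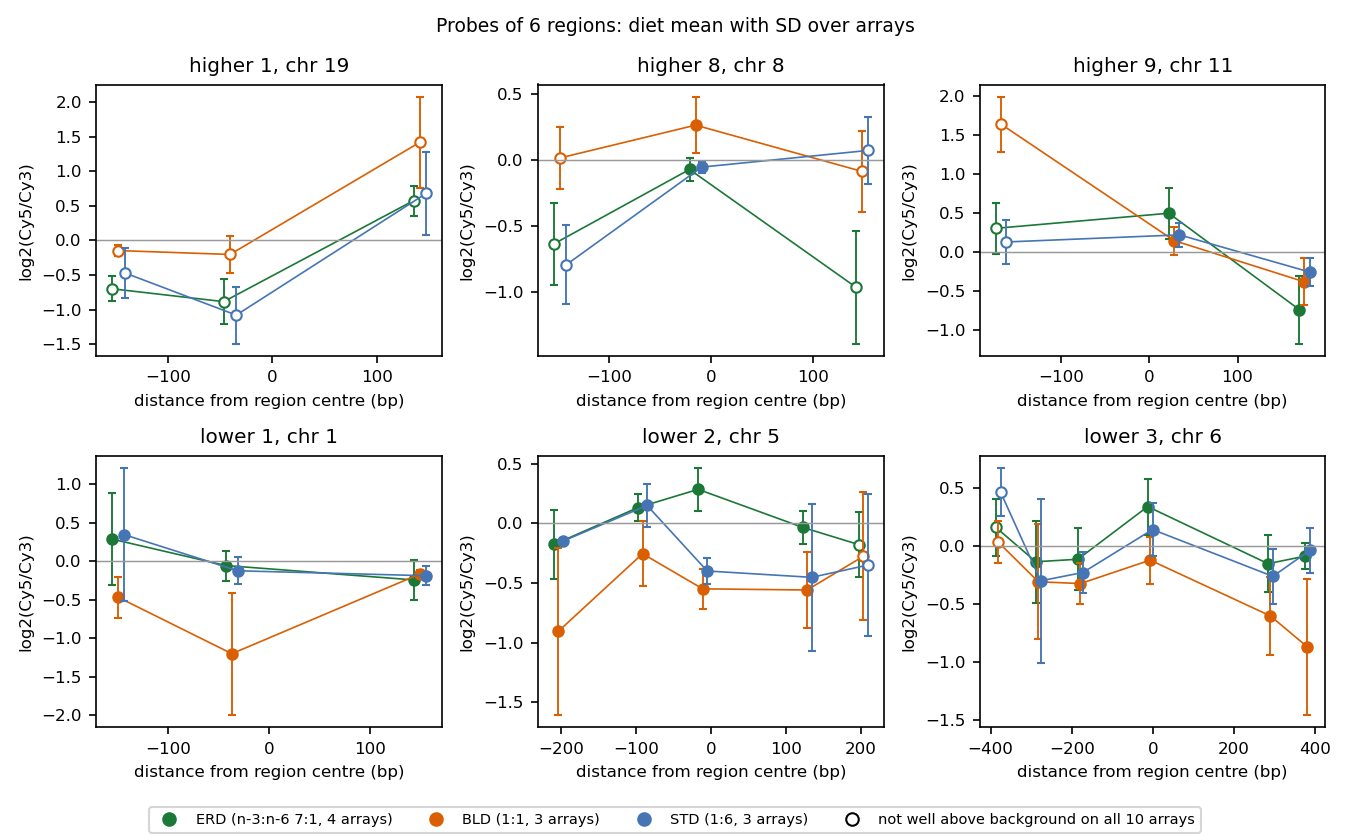
Log2(Cy5/Cy3) of single probes (y axis) against distance from the region centre (x axis) in 6 regions, as the diet mean with SD over 3 or 4 arrays. Open circles mark probes not well above background on all 10 arrays. The difference spans all probes of the chromosome 19 region, is largest at 1 end of the lower chromosome 6 region and rests on an open circle in the chromosome 11 region.

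The direction of the difference went with how bright a region was. Brightness was the mean input (Cy3) signal, which is also the denominator of the ratio, so they are not independent measures. In the dimmest 10% of regions by input signal 247 of 1384 regions were higher in BLD and 2 lower at an unadjusted limma p below 0.05, with a median difference of 0.17. In the brightest 10% there were 20 higher and 111 lower, with a median of -0.056. Among the dimmest, the counts were 87 and 7 when BLD replicate 2 was dropped (median 0.097), 158 and 1 when BLD replicate 1 was, 397 and 7 when BLD replicate 3 was and 393 and 9 when ERD replicate 2 was. Among the brightest, the lower regions numbered 38, 187 and 72 when BLD replicate 1, BLD replicate 3 or STD replicate 1 was dropped. After loess normalisation within arrays, which removes a trend with brightness on each array, the dimmest had 58 higher and 49 lower and the brightest 58 and 45. Of the 10 named regions higher in BLD, 9 were among the dimmest 20% of all regions, and the exception was chr8:79425933-79426273. After loess all 20 named regions kept their direction, with unadjusted limma p-values of 0.0114 or lower and a limma adjusted p of 0.674. They had been chosen for a low p on these same arrays, so these values are a description only.

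**Figure D3:**
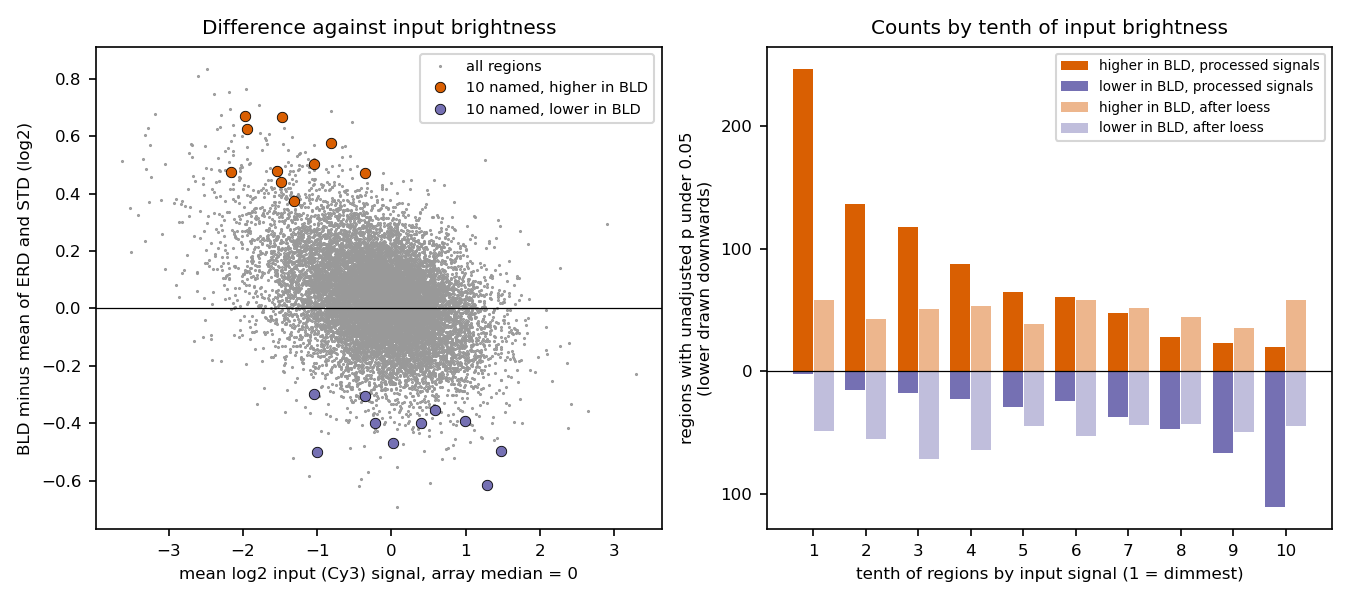
Left, difference of BLD from the mean of ERD and STD in log2 units (y axis) against mean log2 input signal (x axis) for all 13835 regions, with the 20 named regions in colour. Right, number of regions at an unadjusted limma p below 0.05 in each 10% step of input signal, higher upwards and lower downwards, before and after loess; the dimmest step goes from 247 and 2 to 58 and 49.

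The slope of the log2 ratio on input brightness was -0.089, -0.15 and -0.021 on the BLD arrays, -0.017, 0.0044, -0.014 and 0.0078 on ERD and 0.040, 0.0010 and -0.014 on STD. The BLD arrays had the lowest 3 slopes, although BLD replicate 3 was close to the others. The mean differed by -0.088 (exact two-sided permutation p = 0.00833, the smallest that 120 splits allow; 0.075 after adjustment over the 9 array measures compared). The slope was added after the data were seen, as were some of the other measures, so its p-values are a description only. On slide 4 the slope of BLD replicate 3 was below that of STD replicate 1 by -0.061. With only probes well above background on all arrays the difference was -0.036 (exact permutation p = 0.0167). After loess it was -0.0050 (exact permutation p = 0.783), which is no test of the slope since loess removes such a trend on each array.

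Probe length moved with the same arrays. Probes were 45 to 60 nt long, 74.1% of them 45 nt, and the longer ones were dimmer: 94.1% of spots were well above background at 45 nt and 28.0% at 60 nt. The median log2 ratio of the 2748 probes of 60 nt minus that of the 65350 probes of 45 nt was 0.92, 1.13 and 0.22 on the BLD arrays, 0.54, 0.53, 0.34 and 0.25 on ERD and -0.14, 0.063 and 0.12 on STD. BLD replicates 1 and 2, which shared slide 3, stood above all others, and BLD replicate 3 lay below all 4 ERD arrays. BLD exceeded the other 7 by 0.51 (exact two-sided permutation p = 0.050, adjusted 0.112), and by 0.36 on slide 4. This measure too was added after the data were seen, so its p-values are a description only. Of single probes, 28.6% of those of 60 nt were higher in BLD at an unadjusted limma p below 0.05 and 0.655% lower, against 2.83% and 5.52% at 45 nt. Slide 3 held BLD arrays only, and every other slide except slide 4 also held a single diet, so on these slide and diet cannot be told apart. The exact permutations took no account of slides. The part of brightness and probe length in single regions was not tested beyond the values given.

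**Figure D4:**
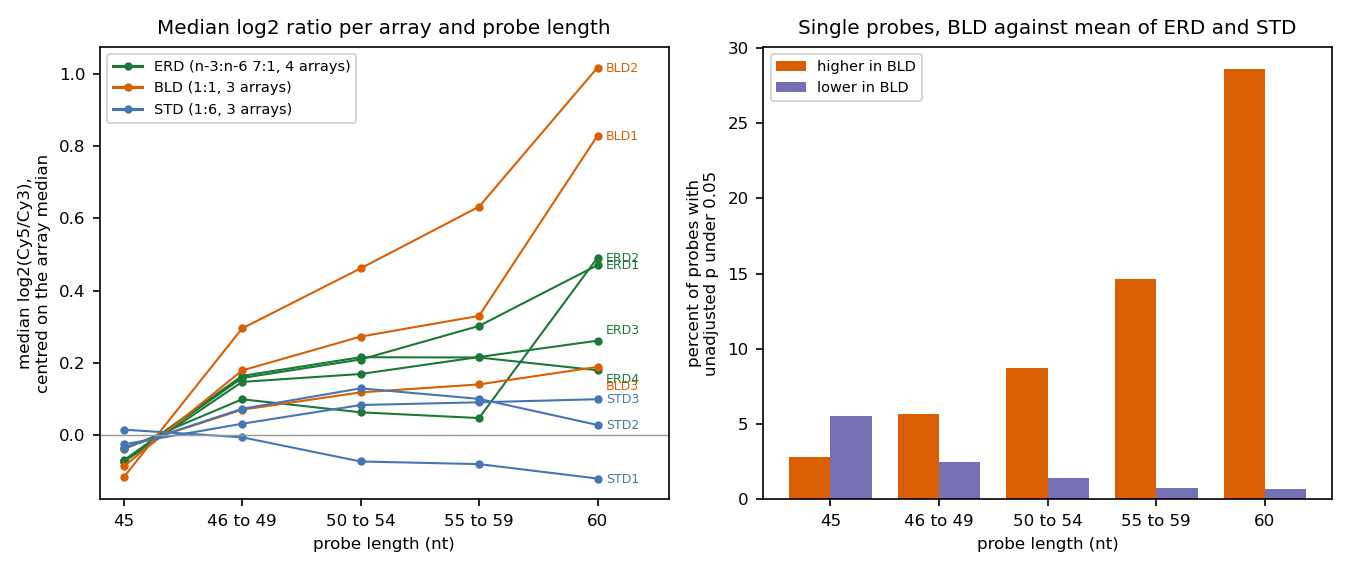
Left, median centred log2(Cy5/Cy3) ratio (y axis) of probes of each length class (x axis, nt) on every array, coloured by diet; at 60 nt BLD replicates 1 and 2 lie highest and BLD replicate 3 lies among the ERD and STD arrays. Right, percent of single probes at an unadjusted limma p below 0.05, rising from 2.83% to 28.6% for higher in BLD and falling from 5.52% to 0.655% for lower.

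Among probes well above background in both channels on all 10 arrays, which were 58.5% of the total, the split ran the other way. They formed 9041 regions, of which 153 were higher in BLD and 679 lower at an unadjusted limma p below 0.05, and 0 passed adjustment (lowest adjusted p 0.530). The median difference there was -0.037. None of the named regions higher in BLD could be formed from these probes. The 3 BLD arrays were above all others in 48 regions and below in 131. This filter acts on Cy5, the numerator of the ratio, so the filter and the difference are not independent. A probe dim on any array was dropped, and STD had the fewest spots well above background (81.5%, against 89.6% for BLD and 88.5% for ERD). The same limit holds where probes not well above background on any array of a diet were left out. With each probe length class centred on its own median the counts in the full set were 587 higher and 501 lower, and regions built from 45 nt probes only gave 303 and 665 of 11299.

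The regions of these bright probes with the lowest p, were chosen after their values were seen. At chr3:14611075-14611398, with 4 probes, BLD read -0.92, -0.63 and -0.30, ERD -0.41, -0.065, 0.075 and 0.020, and STD 0.31, 0.040 and 0.086. BLD was lowest on average with 1 ERD array among its values, and the difference was -0.64 (SE 0.14, limma adjusted p = 0.530). At chr15:100253426-100253875, with 3 probes, BLD read -0.51, -0.34 and -0.037, and the other 7 arrays were all between 0.055 and 0.24, a difference of -0.44 (SE 0.10, limma adjusted p = 0.530). At chr2:74975538-74975953, with 3 probes, BLD read -0.77, -0.44 and -0.32, below ERD (-0.24 to -0.15) and STD (-0.085 to 0.21), with a difference of -0.44 (SE 0.10). In these 3 regions BLD replicate 3 was the nearest of the BLD arrays to the other diets.

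On the higher side, chr9:21961189-21961683 had 4 bright probes of 45 nt. Its 3 BLD arrays read 0.0037, 0.023 and -0.012, its ERD arrays -0.36, -0.42, -0.52 and -0.21, and its STD arrays -0.60, -0.57 and -0.13. The BLD arrays lay close together at the array median while all 7 others were below it, a difference of 0.41 (SE 0.11, limma adjusted p = 0.530), and on slide 4 BLD replicate 3 was 0.58 above STD replicate 1. At chr6:128792917-128793121, with 3 bright probes, BLD read 0.16, -0.063 and -0.14, ERD -0.62, -0.30, -0.75 and -0.59, and STD -0.55, -0.25 and -0.29, again without overlap. The difference was 0.45 (SE 0.11, limma adjusted p = 0.530).

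The channels were also compared singly. Over all regions the median difference was 0.027 for the centred log2 Cy5 signal and 0.0014 for Cy3. In the 835 regions higher in BLD chosen on the ratio of both channels, the median Cy5 difference was 0.29 and that of Cy3 was 0.0032. In the 373 lower regions the medians were -0.39 and -0.089. In 5 of the 20 named regions the Cy3 difference was the larger in size. At chr11:105317709-105318105 Cy5 differed by 0.013 and Cy3 by -0.42, at chr15:102865150-102865470 by 0.28 and -0.29 and at chr5:25211278-25211813 by 0.17 and -0.19. Among the lower regions, chr8:41719873-41720364 had -0.12 in Cy5 and 0.29 in Cy3, and at chr17:21082131-21082881 Cy3 differed by 0.31 while Cy5 differed by 0.00027. On average 86.7% of a region's spots were well above background, 78.7% in the regions higher in BLD and 92.2% in those lower. The probes of a region had 1 sign in 39.9% of the 1208 regions and in 10.3% of all regions; the 1208 were chosen on the mean of those probes.

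Of the 835 higher regions, 457 had BLD above the array median and the mean of the other diets below it, 195 had both above and 183 both below. Of the 373 lower regions, 167 crossed the median, 193 lay below it in BLD and in the other diets, and 13 lay above it in both. These regions were chosen on the same values and the shares over all regions were not computed, so the counts are a description only.

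Regions were also grouped by their number of probes. Among regions with more than 10 probes, 35 of 1225 (2.86%) were higher in BLD and 13 (1.06%) lower, against 7.87% and 3.52% of the 2185 regions with 3 probes. All 3 BLD arrays lay above the other 7 in 28 of the long regions (2.29%) and below them in 6 (0.49%), against 30 (1.37%) and 11 (0.50%) of those with 3 probes. The median difference was 0.023 in the long regions and 0.042 in those with 3 probes, and the classes were not tested against each other. The longest regions with separate BLD arrays and an unadjusted p below 0.05 were chosen after their values were seen. Those with the most probes were chr8:35869720-35872848 (25 probes, 17 of them higher in BLD, 0.19, SE 0.081) and chr1:133422247-133425030 (24 probes, 19 of them higher, 0.19, SE 0.082). Neither met the stricter rule of BLD outside both diets, with a larger unadjusted limma p of 0.075 and 0.166. Next by number of probes was chr11:108781455-108784426, with 19 probes, of which 18 were higher in BLD. BLD read 0.33, 0.18 and 0.14, its ERD arrays -0.078, 0.13, -0.087 and -0.20, and its STD arrays -0.14, -0.059 and 0.0020, so that the lowest BLD array was just above the highest ERD array. The difference was 0.28 (SE 0.091, limma adjusted p = 0.562). On the lower side chr4:8617250-8619442, with 11 probes, had BLD at -0.51, -0.22 and -0.32, ERD between -0.068 and -0.0080 and STD at 0.20, -0.22 and -0.026. STD replicate 2 all but met BLD replicate 2, and the difference was -0.32 (SE 0.10, limma adjusted p = 0.562).

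Neighbouring regions were compared in pairs. Across 1476 pairs of adjacent regions within 5 kb the differences had a Pearson r of 0.052, given as a description across regions that share arrays. In 16 pairs (1.08%) both regions were higher in BLD at an unadjusted limma p below 0.05, where 7.86% of the single regions in these pairs were higher, in 0 both were lower and in 3 they were opposite. Among the 16 pairs was chr10:88193261-88193987 (7 probes, 0.32, SE 0.093) with a neighbour 546 bp away (4 probes, 0.40, SE 0.16). Another was chr12:114390090-114390400 (3 probes, 0.22, SE 0.084) with a neighbour 3669 bp away (8 probes, 0.32, SE 0.086). Both pairs were chosen after their values were seen.

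By chromosome, the median region was shifted little. The largest shift of the median between BLD and the other 7 arrays was 0.042, on chromosome 7 (exact permutation p = 0.0167), and the lowest p was on chromosome 4, with a shift of 0.040 (exact permutation p = 0.00833, the smallest possible). After adjustment over 20 chromosomes the lowest adjusted exact permutation p was 0.167. After loess the shift on chromosome 4 was 0.018 (exact permutation p = 0.0583). The X chromosome, present in 1 copy in male cells, had 12 of 385 regions higher (3.12%) and 14 lower (3.64%), while the autosomes had 4.48% to 8.11% higher. Its difference from the autosomes was not tested.

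Leaving out 1 array brought 3 regions past an adjusted limma p of 0.05, and in each the array left out lay far from the others of its diet. At chr17:12464504-12464912, with 4 probes, BLD read 1.55, 1.26 and 1.02, ERD 0.47, 2.18, 0.36 and 0.71, and STD -0.040, 0.042 and -0.14. Without ERD replicate 2, which was above every BLD array, the difference was 1.04 (SE 0.12, limma adjusted p = 0.0235), and with all arrays it was 0.84 (SE 0.31, limma adjusted p = 0.562). At chr14:55203336-55203649, with 4 probes, BLD read 0.95, 0.95 and 0.60, ERD 0.19, 1.83, 0.39 and 0.20, and STD -0.32, -0.13 and -0.29. Without ERD replicate 2 the difference was 0.83 (SE 0.11, limma adjusted p = 0.0279), and with it 0.63 (SE 0.29, limma adjusted p = 0.568). At chr14:45949326-45949824, with 4 probes, BLD read -1.23, -0.88 and -0.019, ERD between -0.34 and -0.12 and STD between 0.12 and 0.19. Without BLD replicate 3, which was not low, the difference was -1.04 (SE 0.11, limma adjusted p = 0.0265), resting on the arrays of slide 3 alone, and with it -0.69 (SE 0.19, limma adjusted p = 0.562). Spots well above background made up 45%, 70% and 97.5% of the spots of these regions in that order.

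**Figure D5:**
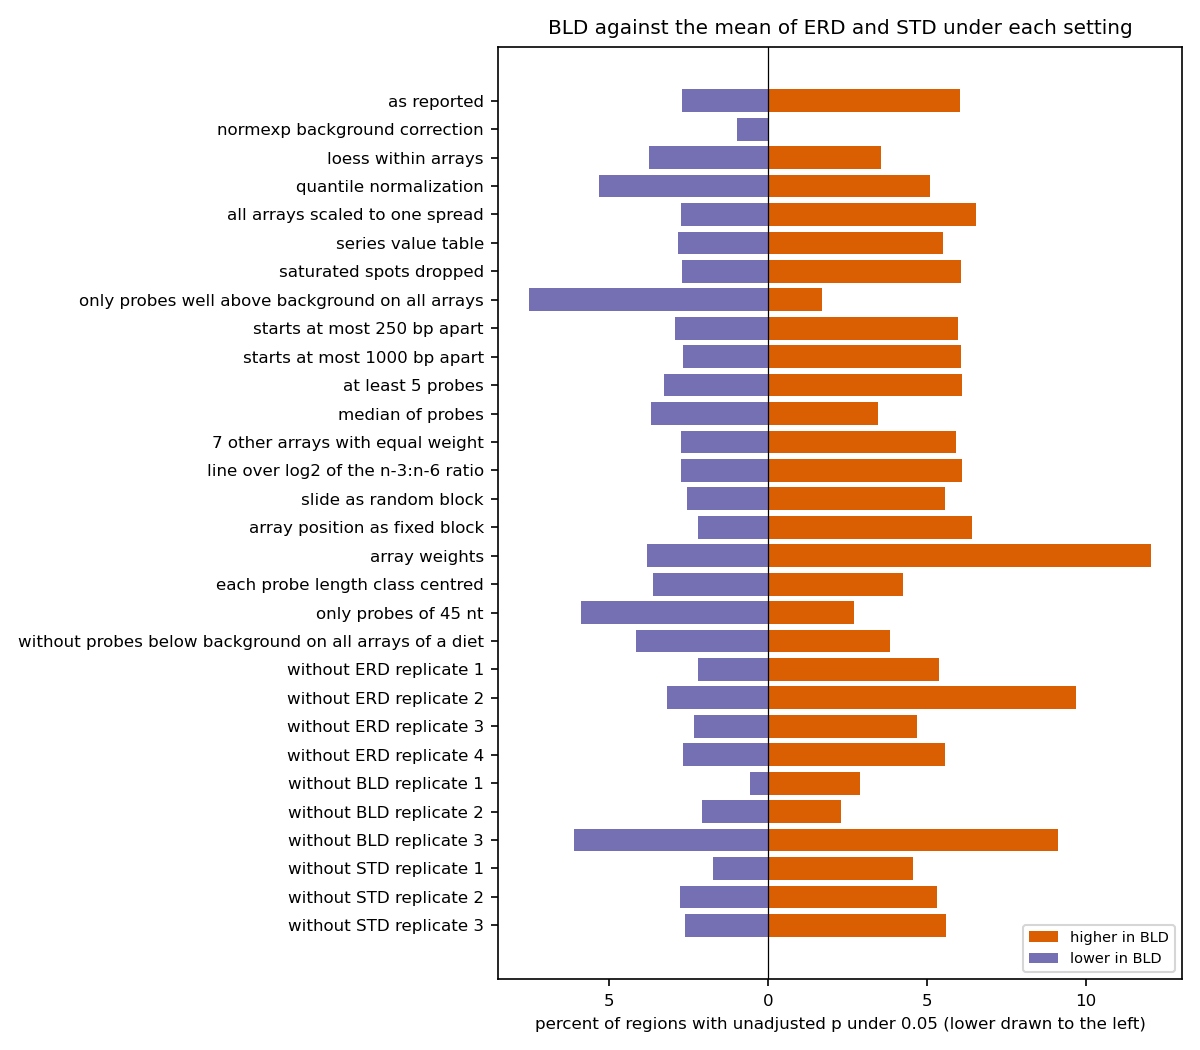
Percent of regions at an unadjusted limma p below 0.05 (x axis), higher in BLD to the right and lower to the left, for the values as reported, each other way of processing and each fit without 1 array (y axis). The reported split of 835 higher and 373 lower becomes 153 and 679 with bright probes only and 317 and 288 without BLD replicate 2.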

How the data were processed

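Arrays were Agilent 2-colour mouse CpG island designs with 88737 non-control probes. Per the file headers, the processed intensity of each channel was deposited after background subtraction and a linear dye scaling by Agilent Feature Extraction 10.7.3.1 (the submitters' processing notes list 9.0). The deposited log10 ratio of Cy5 over Cy3 also stands in the series value table. Other deposited columns are flags for spots that are outliers, saturated or well above background. Per the labels, Cy5 was the immunoprecipitated and Cy3 the input DNA on every array, so dye effects of single probes were not balanced.

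The log2 ratio of the processed signals was computed, outlier spots were dropped and each array was centred on its median. Probes with starts at most 500 bp apart were averaged where 3 or more stood together. Diets were fitted in limma 3.58.1 (R 4.3.3) on all 10 arrays with no covariate, as the contrast BLD minus the mean of ERD and STD, with Benjamini-Hochberg adjustment. BLD against each other diet came from the same fit. Values with 1 number per array were compared by exact two-sided permutation over 120 splits, which took no account of slides. The code was tested on simulated data.

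Named were the 10 regions with the lowest p in each direction whose BLD mean lay outside both other diets and whose direction held without each array. The comparison and lists were chosen with earlier results of these data known. The planned gene lists, cell type markers and probe sequences were not used here, since no gene model or sequence of the files' build was at hand. Alternatives were normexp (offset 50), loess, quantile and scale normalisation, the series value table, filters on dim and saturated spots, other region definitions, other weights of the diets, slide and array position as blocks, array weights, single probes and each array left out. Some items were added after the data were seen. They were the fits by probe length and those without probes never well above background in a diet, and the slope on brightness. The medians of the dimmest and brightest 10% of regions and of 60 nt minus 45 nt probes were added then too.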

Additional observations from a re-analysis of the deposited data

Results flagged for a closer look

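At chr15:102865150-102865470, the seventh named region higher in BLD, ERD replicate 2 read 0.089 while the other ERD arrays lay between -0.32 and -0.25. For the median of chromosome 3, ERD replicate 1 read -0.051 while the other ERD arrays lay between -0.091 and -0.087. In both cases the gap exceeded Dixon's critical value for 4 samples. Of 55 values checked in the ERD group, chance alone would mark about 1 in 20.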

How the results depend on the processing

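No paired analysis was possible because the labels carry no replicate number shared between diets. Slide as a random block gave 771 regions higher and 355 lower in BLD. The number of regions past adjustment was 0 in every setting with all arrays; without 1 array it was 0 to 2. Without 1 array, regions higher in BLD numbered 317 to 1338, regions lower 78 to 843, regions outside both diets 118 to 781 and regions with separate BLD arrays 338 to 1667. Regions higher in BLD numbered 491 with loess, 478 with the median of probes and 544 with at least 5 probes (fewer regions tested). They numbered 1665 with array weights and 531 without probes that were not well above background on any array of a diet. Regions lower numbered 736 with quantile normalisation and 574 without those probes. With normexp there were 0 higher and 138 lower, 3 outside both diets and 52 separate. With bright probes only there were 153 higher, 679 lower, 169 outside both and 179 separate. With 45 nt probes only there were 303 higher, 665 lower and 188 separate. Single probes gave 4276 higher and 4030 lower of 88737. The cause of these changes was not tested.

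The share of higher among the regions at an unadjusted limma p below 0.05 was 69.1% as reported, 48.6% with loess, 48.9% with quantile normalisation, 0% with normexp and 70.5% with scaling to one spread. Some named regions had the opposite sign with normexp: the higher regions 1, 2, 3, 4, 5, 6 and 9 gave -0.079, -0.075, -0.064, -0.012, -0.057, -0.10 and -0.034, and the lower region 6 gave 0.048. These values were smaller in size than their SE, except for the higher region 3 (SE 0.062). Higher region 9 also had the opposite sign without probes that were never well above background in a diet, at -0.049 (SE 0.079). With normexp all 20 named differences lay between -0.13 and 0.11. None of the named regions passed adjustment in any setting. Only 6 of the 20 could be formed from bright probes, all of them lower in BLD. From at least 5 probes 5 could be formed, and from 45 nt probes 11.

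The interquartile range of the ratios differed by 0.0034 between BLD and the other 7 arrays, by -0.36 with normexp and -0.020 with bright probes, and by -0.063 to 0.12 without 1 array. The spread within regions differed by -0.021, and by -0.069 to 0.051 without 1 array. The median net Cy5 signal differed by -45.7 (-104 to 11.2 without 1 array). The median net Cy3 signal differed by 4.98, by -2.31 with bright probes and by -16.4 to 16.1 without 1 array. The difference at 60 minus 45 nt and that of the dimmest 10% became -0.15 and -0.052 with normexp, and that of the brightest 10% 0.0028 with loess. With 3 or 4 arrays a diet, the 95% confidence interval of the median region reached 0.24 to either side, and it was narrower where the SE was smaller.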

Other observations

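Outside the regions, 2756 probes had a position but stood in runs of fewer than 3 probes. At an unadjusted limma p below 0.05, 290 of them (10.5%) differed between BLD and the mean of the other diets, 181 higher and 109 lower, and 0 passed adjustment. Their median difference was 0.043 on the log2 scale.

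Region values of the BLD arrays correlated across regions with r = 0.80 between replicates 1 and 2, which shared a slide, and with 0.69 and 0.72 between these and replicate 3. BLD replicate 3 had r = 0.78 with ERD replicate 2 and 0.56 with STD replicate 1, its partner on slide 4. These values describe the arrays, which share probes and probe effects.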
